A study of Mus musculus with 19 samples.

Results

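The TGF-beta signalling genes described here were 10 genes chosen by name: the ligand gene *Tgfb1*, its anchor gene *Nrros*, the receptor genes *Tgfbr1* and *Tgfbr2*, the SMAD genes *Smad2*, *Smad3*, *Smad4* and *Smad7*, and the co-repressor genes *Ski* and *Skil*. All 10 were among the 56980 genes counted, and all 10 passed the filter on low counts, which left 18739 genes for testing. RNA was sequenced from CD11b+ cells, the myeloid cells that carry this surface integrin, enriched on magnetic beads (MACS) from mouse brains without the olfactory bulb and the cerebellum. The mice were males of 3 to 4 months. They were *PARK7*/DJ-1 KO animals of a gene trap line (B6;129P2-Park7Gt(XE726)Byg) backcrossed to C57BL/6NCrl, or their wildtype littermates. LPS, a bacterial cell wall component that starts systemic inflammation, was given at 4 μg/g body weight into the peritoneum, and PBS was the vehicle. Cells were taken 6 h later from perfused animals, as 5 KO and 5 wildtype libraries after LPS and 5 KO and 4 wildtype libraries after PBS. The gene trap is not restricted to microglia, and the CD11b selection does not separate microglia from other myeloid cells.

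TGF-beta is secreted in a latent form, held by a propeptide that must be opened before the ligand can bind. In microglia the latent ligand is tethered by the leucine-rich protein that *Nrros* encodes. The active ligand binds the type II receptor, which recruits and phosphorylates the type I receptor, and the type I receptor phosphorylates SMAD2 and SMAD3. These join SMAD4, enter the nucleus and bind DNA, where the proteins encoded by *Ski* and *Skil* repress transcription, while SMAD7 acts as a feedback inhibitor at the receptor. The pathway is known for keeping microglia in their homeostatic, resting state, and mice that lack *Tgfbr2* or *Nrros* in these cells lose homeostatic microglial genes.

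The libraries held 11936364 to 22788884 counts in total (median 17211939). Each of the 10 genes had between 1151 and 74445 counts in every library, so counting error was small beside the spread between mice. *Park7*, the targeted gene, averaged 22.3 ± 2.08 CPM (counts scaled for depth with TMM factors; mean ± SD, n = 4) after PBS and 25.2 ± 3.90 (n = 5) after LPS in wildtype cells, and 1.66 ± 0.961 and 3.44 ± 1.72 (n = 5 each) in KO cells. The 8 microglial markers were all detected, with a summed level of 22960 to 35983 CPM after PBS and 10473 to 16701 CPM after LPS in wildtype cells, and 24190 to 36849 and 10797 to 16687 CPM in KO cells. The summed level of 10 neutrophil and monocyte markers was 58.8 to 96.2 CPM after PBS and 321 to 593 CPM after LPS in wildtype cells, and 39.6 to 131 and 189 to 622 CPM in KO cells, with none of the 10 at 0 throughout a group. Of 7 endothelial markers 4 fell and 0 rose in each genotype at the thresholds given below, where 17.4% of all genes fell in wildtype and 19% in KO cells. Their summed level was 391 to 1235 CPM after PBS and 136 to 608 CPM after LPS in wildtype cells, and 562 to 1139 and 65.5 to 628 CPM in KO cells, with overlap in both. The part that these shifts have in the LPS differences below was not tested, and in bulk RNA fewer cells of a type and less RNA per cell cannot be told apart. Border-associated macrophage markers (6 genes) went from 518 to 626 to 302 to 518 CPM in wildtype cells and from 472 to 635 to 272 to 487 CPM in KO cells, and lymphocyte markers never passed 3.43 CPM in sum. Pericyte, astrocyte, oligodendrocyte and neuron marker sums overlapped between LPS and PBS in both genotypes, and oligodendrocyte markers reached 11222 CPM in 1 KO library after LPS. At the same thresholds 3 of 6 border-associated macrophage markers fell and 0 rose in each genotype, beside the shares of all genes given above. Of 6 astrocyte markers 1 rose, as did 1 of 4 neuron markers, in each genotype, where 18.4% of all genes rose in wildtype and 20.1% in KO cells. None of the pericyte or oligodendrocyte markers passed. Each library has its own number in the labels, read here as the number of the mouse, and p-values measure the spread between these libraries.

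The ligand, both receptors, *Smad3* and *Smad7* were lower after LPS in wildtype cells. The calls of *Tgfbr2* and *Smad3* depended on single libraries, as given below. With thresholds of an adjusted p-value under 0.05 and a log2FC of at least 0.5 in size, 5 of the 10 genes fell and 0 rose, where 17.4% of all genes tested fell and 18.4% rose. Adjusted p-values here and below are Benjamini-Hochberg values of edgeR's quasi-likelihood test over the 18739 genes. At an unadjusted p under 0.05, 5 of the 10 genes and 48.2% of all genes passed in either direction, and the number of the 10 that rose was also 0. DESeq2 likewise called 5 lower and 0 higher. The median log2FC was -0.30 over the 10 genes and -0.06 over all genes tested. In 3 of the 10 the LPS and PBS libraries did not overlap, each lower after LPS, against 17% of all genes, and in 0 of the 10 were they separate and higher, against 20.8%.

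In KO cells 2 of the 10 genes, *Tgfbr1* and *Smad7*, fell past both thresholds and 0 rose, where 19% of all genes fell and 20.1% rose. DESeq2 also called 2 lower and 0 higher, and 3 of the 10 were higher at an unadjusted p under 0.05 in either tool. In edgeR 6 of the 10 genes and 52.0% of all genes passed that unadjusted threshold in either direction. At an adjusted p under 0.05 with any fold change, 3 of the 10 were lower and 2 higher, where 21.9% and 24.2% of all genes were. The median log2FC was -0.15 over the 10 genes and -0.01 over all genes. The LPS and PBS libraries were separate and lower after LPS for 2 of the 10 genes, against 16.6% of all genes, and separate and higher for 0, against 16.2%. No difference in the LPS response between the genotypes passed the interaction test for any of these genes.

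**Figure D1:**
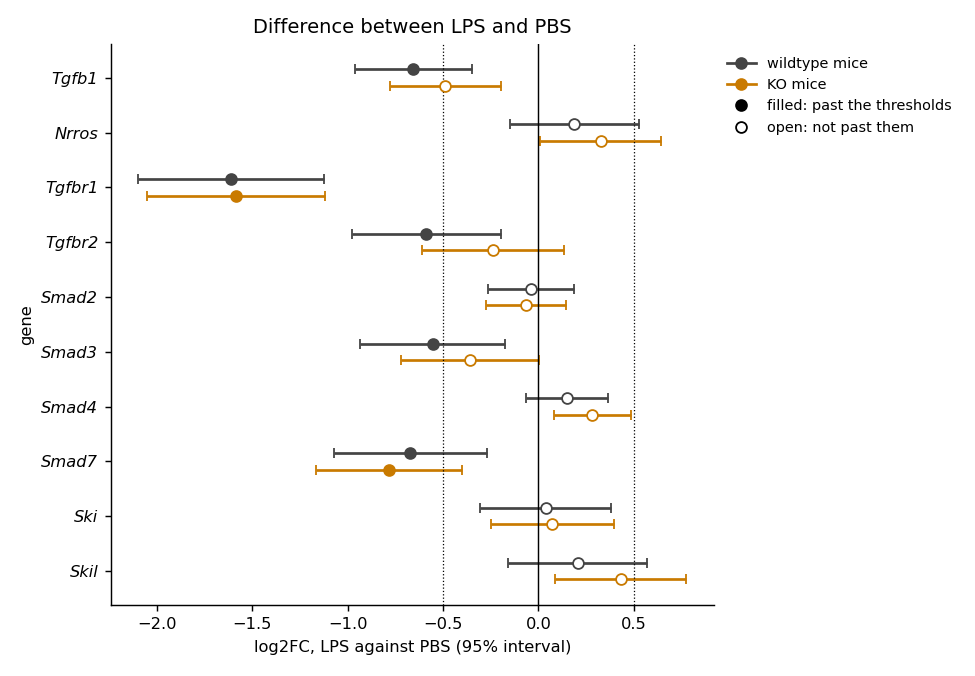
Log2 fold change between LPS and PBS for the 10 genes in wildtype (grey) and KO (orange) mice, with 95% intervals from the edgeR fit; dotted lines mark -0.5 and 0.5, and filled points passed both thresholds. *Tgfbr1* lies near -1.6 in both genotypes, *Smad7* is filled in both, and *Tgfb1*, *Tgfbr2* and *Smad3* are filled in wildtype mice only, a difference between genotypes that did not pass the interaction test.

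The levels of the 10 genes spanned a wide range at rest. Per kilobase of exon, *Tgfbr1* was the highest in wildtype cells after PBS, at 406 ± 77.7 CPM per kb (SD, n = 4), which placed it at rank 32 of 14469 protein-coding genes tested. *Tgfbr2* at 98.4 ± 19.8 and *Ski* at 94.3 ± 14.1 CPM per kb followed and overlapped each other. *Smad7*, *Tgfb1*, *Skil* and *Smad3* came next, between 61.1 and 41.3 CPM per kb, each overlapping its neighbour in this order. Below them *Nrros* at 27.6 ± 1.25, *Smad4* at 12.5 ± 0.907 and *Smad2* at 7.88 ± 0.814 CPM per kb were each separate from the gene above. KO cells after PBS had the same order, with *Tgfbr1* at 420 ± 61.3 CPM per kb (n = 5). After LPS *Tgfbr1* remained first by a smaller margin: at 133 ± 41.1 CPM per kb in wildtype cells (n = 5, rank 162) its libraries overlapped those of *Ski* at 96.9 ± 22.2, and in KO cells 140 ± 43.8 overlapped 100.3 ± 15.3. *Smad4* and *Smad2* stayed at the bottom of the order in all 4 groups.

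**Figure D2:**
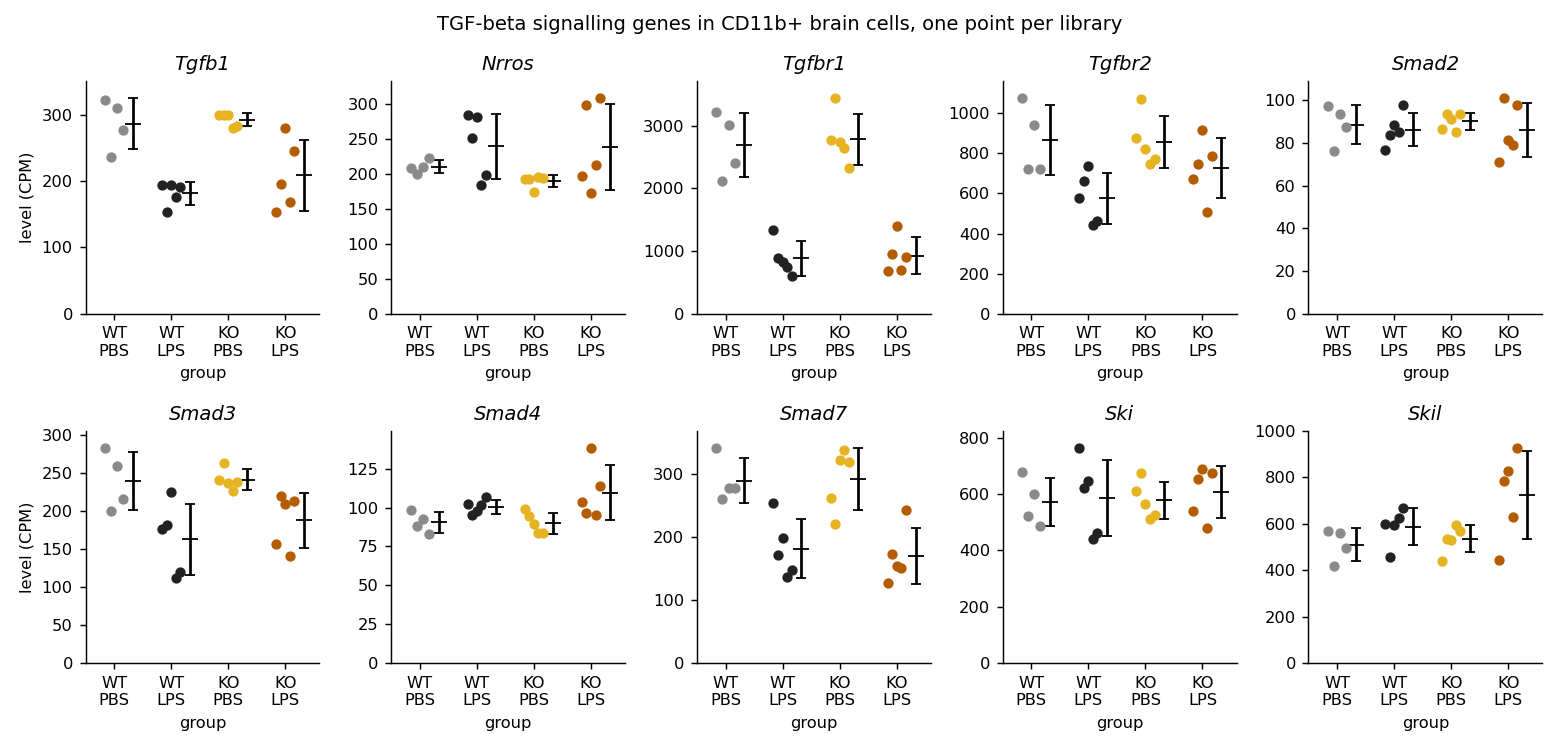
Level of each of the 10 genes in CPM (y axis from 0) for wildtype and KO libraries after PBS or LPS; each point is 1 library, and the bar beside each group is the mean with the SD. The LPS points lie wholly below the PBS points in both genotypes for *Tgfbr1*, and overlap them for *Smad2*, *Ski* and *Skil*.

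*Tgfb1* (ENSMUSG00000002603, chr7:25386390-25404506 on GRCm39) encodes the TGF-beta 1 ligand. In wildtype cells it stood at 323, 236, 310 and 277 CPM after PBS and at 194, 154, 194, 177 and 191 CPM after LPS. Every LPS library was below every PBS library, and the level was 1.57-fold lower after LPS (log2FC -0.66, SE 0.146, adjusted p = 0.00126). In KO cells it was 300.3, 299, 300.2, 280.4 and 284 CPM after PBS, a narrow range, and 153, 196, 281, 169 and 245 CPM after LPS. The LPS libraries were spread out, and KO LPS replicate 3 lay just above the lowest PBS library. The log2FC was -0.49 (SE 0.139, adjusted p = 0.00709), just short of the fold threshold, so the gene was not called in KO cells, though it passed both thresholds in 6 of 10 other settings and without KO LPS replicate 3 (log2FC -0.62) or replicate 5 (-0.55) or KO PBS replicate 4 (-0.50).

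*Nrros* (ENSMUSG00000052384, chr16:31960320-31984521) encodes the protein that tethers latent TGF-beta 1 to the microglial surface. Its levels were 209, 200, 210 and 223 CPM after PBS and 284, 251, 282, 184 and 198 CPM after LPS in wildtype cells. The LPS libraries lay on both sides of the PBS libraries, and the log2FC of 0.19 (SE 0.161, adjusted p = 0.386) did not pass. In KO cells the levels were 192, 193, 174, 196 and 194 CPM after PBS and 197, 299, 173, 214 and 309 CPM after LPS, again overlapping, with a log2FC of 0.33 (SE 0.151, adjusted p = 0.0871). Annotated lncRNAs on the opposite strand share 510 exonic bases with *Nrros*, 61 with *Tgfbr1* and 443 with *Tgfbr2*, and the strand setting of the counting was not stated in the sources used here.

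Because *Tgfb1* and *Nrros* moved unequally, their ratio within a library shifted. In wildtype cells there were 0.647, 0.846, 0.676 and 0.805 *Nrros* counts per *Tgfb1* count after PBS and 1.46, 1.63, 1.45, 1.04 and 1.04 after LPS, with no overlap. In KO cells the ratio was 0.581 to 0.700 after PBS and 1.29, 1.52, 0.615, 1.26 and 1.26 after LPS. KO LPS replicate 3 alone fell inside the PBS range. These ratios are a description, with no test.

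*Tgfbr1* (ENSMUSG00000007613, chr4:47353134-47414931), the type I receptor whose kinase acts on SMAD2 and SMAD3, had the largest LPS difference of the 10 genes. In wildtype cells it went from 3219, 2115, 3012 and 2407 CPM after PBS to 1327, 892, 823, 749.5 and 604 CPM after LPS. In KO cells it went from 2764, 3435, 2743, 2646 and 2320 CPM to 682, 953, 1400, 700.2 and 895 CPM. The groups were far apart in both genotypes. The level was 3.06-fold lower after LPS in wildtype cells (log2FC -1.61, SE 0.232, adjusted p = 1.51e-05) and 3.00-fold lower in KO cells (log2FC -1.59, SE 0.223, adjusted p = 9.33e-06). With a marker score of endothelial cells, pericytes, astrocytes, oligodendrocytes and neurons as a covariate the log2FC values were -1.65 and -1.64. That score held no markers of microglia or other leukocytes, so the part of shifts in those cells was not tested.

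*Tgfbr2* (ENSMUSG00000032440, chr9:115913361-116004800), the ligand-binding type II receptor, fell less. In wildtype cells it stood at 1075, 723, 941 and 721 CPM after PBS and at 575, 662, 739, 440 and 461 CPM after LPS. WT LPS replicate 3 lay above the 2 lowest PBS libraries, and the log2FC was -0.59 (SE 0.187, adjusted p = 0.0160). The call rested on WT PBS replicate 1, without which the log2FC was -0.47 (adjusted p = 0.0703). In KO cells the levels were 875, 1073, 821, 746 and 772 CPM after PBS and 671, 749, 918, 509 and 785 CPM after LPS, which overlapped, with a log2FC of -0.24 (SE 0.177, adjusted p = 0.294).

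The proportion of the 2 receptor transcripts to each other shifted with LPS. The libraries held 2.99, 2.92, 3.20 and 3.34 *Tgfbr1* counts per *Tgfbr2* count in wildtype cells after PBS and 2.31, 1.35, 1.11, 1.70 and 1.31 after LPS. In KO cells there were 3.16, 3.20, 3.34, 3.55 and 3.01 after PBS and 1.02, 1.27, 1.52, 1.38 and 1.14 after LPS. The ratio was lower in every LPS library than in any PBS library of the same genotype. As a ratio within a library it does not depend on the scaling between libraries, and it shows unequal change, not which of the genes moved.

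**Figure D3:**
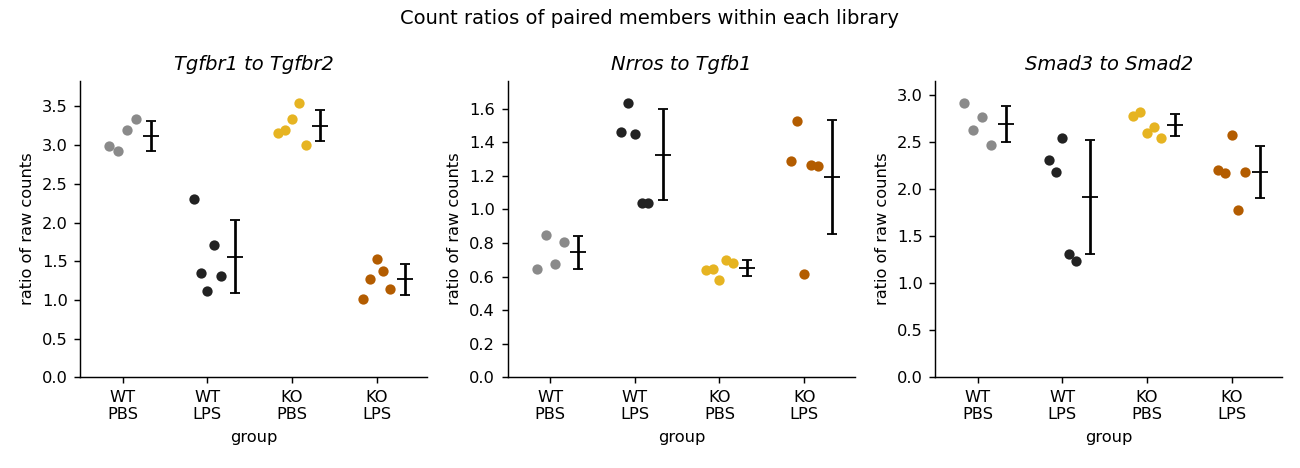
Ratio of raw counts within each library (y axis from 0) for 3 pairs of genes in wildtype and KO libraries after PBS or LPS; points are libraries, and the bar beside each group is the mean with the SD. The *Tgfbr1* to *Tgfbr2* ratio lies between 2.92 and 3.55 after PBS and between 1.02 and 2.31 after LPS.

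The sequences before the annotated starts of the ligand gene, its anchor gene and the type I receptor gene are shown because the first and last fell after LPS in wildtype cells while the anchor gene did not pass the test. They come from the RefSeq promoter table, were placed on GRCm39 by exact match, and are cut at the annotated gene start. Capitals mark matches on either strand to the GC box GGGCGG or to the SMAD-binding letters CAGAC, which do not overlap in them. The stretches are chr7:25386177-25386389 (plus strand), chr16:31984522-31984662 (minus strand) and chr4:47352972-47353133 (plus strand), in that order.
Tgfb1: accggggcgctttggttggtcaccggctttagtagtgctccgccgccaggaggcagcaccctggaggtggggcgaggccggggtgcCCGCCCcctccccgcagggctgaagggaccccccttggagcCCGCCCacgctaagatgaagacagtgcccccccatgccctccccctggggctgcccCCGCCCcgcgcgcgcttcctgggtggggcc
Nrros: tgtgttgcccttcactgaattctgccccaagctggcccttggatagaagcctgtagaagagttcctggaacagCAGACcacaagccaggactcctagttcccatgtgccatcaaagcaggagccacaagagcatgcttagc
Tgfbr1: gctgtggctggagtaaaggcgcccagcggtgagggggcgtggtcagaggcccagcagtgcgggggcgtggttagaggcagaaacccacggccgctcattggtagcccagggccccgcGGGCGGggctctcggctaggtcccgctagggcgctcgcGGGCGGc

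Over the whole 250-base windows the table gives, *Tgfb1* held 5 GC boxes and *Tgfbr1* 2 in a sequence of 75.2% and 74.8% G and C, and *Nrros* held none and 1 CAGAC in a sequence of 58.4%. The table had windows for 6 of the 7 genes that lie outside chromosome 18. *Smad3*, which fell in wildtype cells, held 2 GC boxes, *Ski*, which did not pass the test, held 5, and *Tgfbr2* held none and 1 CAGAC. The windows of *Ski* and *Tgfbr2* lie wholly within the annotated genes, near their 5' ends, and are not sequence before the annotated start. Of 32851 windows of this length, 32.7% held a GC box and 42.2% a CAGAC. The NF-kB letters GGGANTTTC were in 0 of the 7 windows of these genes and in 0.941% of all windows, and the ETS letters GGAAGT were only in a second *Tgfbr1* window inside the gene and in 19.7% of all windows. These matches are descriptions of the letters and were not tied to the LPS differences.

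*Smad2* (ENSMUSG00000024563) and *Smad3* (ENSMUSG00000032402, chr9:63554049-63665476) encode the 2 SMADs that the type I receptor phosphorylates, and they differed in their response. *Smad2*, which lies on chromosome 18 with *Smad4* and *Smad7*, had the smallest spread of the 10 genes, with an SD of 0.14 in log2 CPM over the 19 libraries beside 0.90 for *Tgfbr1*. Its range was 76.4 to 97.3 CPM after PBS and 76.5 to 98.0 CPM after LPS in wildtype cells, and 85.3 to 93.8 and 71.3 to 101 CPM in KO cells. The log2FC was -0.04 (95% interval -0.26 to 0.18) in wildtype and -0.06 (-0.28 to 0.15) in KO cells, intervals that leave out a change of 0.5.

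*Smad3* stood at 283, 200.2, 259 and 215 CPM after PBS and at 176, 182, 225, 112 and 120.4 CPM after LPS in wildtype cells. WT LPS replicate 3 lay within the PBS range and the other 4 below it, and the log2FC was -0.55 (SE 0.182, adjusted p = 0.0194). The call did not hold without WT PBS replicate 1 (log2FC -0.46, adjusted p = 0.0709), WT PBS replicate 3 (-0.52, 0.0532), WT LPS replicate 4 (-0.44, 0.0525) or WT LPS replicate 5 (-0.46, 0.0542). In KO cells *Smad3* was at 240.4, 264, 236, 226 and 239 CPM after PBS and at 157, 219, 209, 141 and 213 CPM after LPS. Here every LPS library was below every PBS library, yet the log2FC of -0.36 (SE 0.172, adjusted p = 0.0971) did not pass. There were 2.46 to 2.91 *Smad3* counts per *Smad2* count after PBS and 1.23 to 2.54 after LPS in wildtype cells, and 2.54 to 2.82 and 1.77 to 2.57 in KO cells, so the ratio overlapped between treatments.

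*Smad4* (ENSMUSG00000024515), the partner shared by all receptor-regulated SMADs, was at 98.6, 87.9, 92.4 and 83.2 CPM after PBS and at 102, 94.9, 97.6, 102 and 106 CPM after LPS in wildtype cells. The groups overlapped, and the log2FC was 0.15 (SE 0.103, adjusted p = 0.260). In KO cells its range was 83.6 to 99.1 CPM after PBS and 95.5 to 138 CPM after LPS. The log2FC of 0.28 (SE 0.0965, adjusted p = 0.0219) was past the threshold on p and short of the one on fold change.

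*Smad7* (ENSMUSG00000025880), the inhibitory SMAD that is itself induced by TGF-beta signalling, fell in both genotypes. In wildtype cells it was at 342, 260.3, 278 and 279 CPM after PBS and at 254, 172, 198, 138 and 148 CPM after LPS, with no overlap. Its level was 1.59-fold lower (log2FC -0.67, SE 0.191, adjusted p = 0.00796). In KO cells it was at 263, 221, 322, 339 and 319 CPM after PBS and at 127, 174, 155, 151 and 244 CPM after LPS. KO LPS replicate 5 lay above the lowest PBS library, KO PBS replicate 2, and the level was 1.72-fold lower (log2FC -0.78, SE 0.182, adjusted p = 0.00153). *Smad7* was past both thresholds in both genotypes without any 1 of the 19 libraries, with log2FC values of -0.82 to -0.58 in wildtype and -0.95 to -0.68 in KO cells.

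The co-repressor genes did not fall with the receptors. *Ski* (ENSMUSG00000029050, chr4:155238532-155307543) was at 677, 522, 600.5 and 485 CPM after PBS and at 763, 620.4, 647, 441 and 463 CPM after LPS in wildtype cells. The LPS libraries lay on both sides of the PBS range. Its log2FC was 0.04 (SE 0.164, adjusted p = 0.877) in wildtype and 0.07 (SE 0.154, adjusted p = 0.737) in KO cells, where the range was 510.4 to 674 CPM after PBS and 479 to 689 CPM after LPS. *Skil* (ENSMUSG00000027660, chr3:31148816-31176740), which encodes the related co-repressor SnoN, was at 418 to 567 CPM after PBS and 459 to 669 CPM after LPS in wildtype cells, with a log2FC of 0.21 (SE 0.175, adjusted p = 0.383). In KO cells it was at 442, 537, 532, 597 and 571 CPM after PBS and at 445, 786, 828, 627 and 926 CPM after LPS. All LPS libraries but KO LPS replicate 1 were above the PBS range. The log2FC was 0.43 (SE 0.164, adjusted p = 0.0382), short of the fold threshold, and 0.58 (adjusted p = 0.00188) without that library, which passed both.

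Across the 19 libraries the 10 genes did not vary as 1 block. *Tgfbr2* and *Smad3* were the most closely related pair of members, with Pearson's r of 0.939 for log2 CPM and 0.900 after each group's mean was removed. After that step *Ski* also followed *Smad3* (0.874), *Tgfbr2* (0.867) and *Tgfbr1* (0.839), although it did not share their difference between LPS and PBS. The lowest values after that step were those of *Nrros* with *Smad4* (-0.37) and *Smad4* with *Smad7* (-0.02). The libraries share their scaling and cell makeup across genes, so these values are descriptions.

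Among 17240 genes with enough counts, the gene whose log2 CPM was most like that of a member over the 19 libraries was *Sqor* for *Tgfb1* (r = 0.946), *Dtymk* for *Nrros* (0.912), *Asah1* for *Tgfbr1* (0.991), *Rapgef5* for both *Tgfbr2* (0.941) and *Smad3* (0.970), *Mettl17* for *Smad2* (0.790), *Manbal* for *Smad4* (0.931), *1700017B05Rik* for *Smad7* (0.978), *Cd164* for *Ski* (0.927) and *Rel* for *Skil* (0.931). *Asah1* encodes a lysosomal ceramidase, and *Rel* encodes a subunit of NF-kB. The lowest of these 10 values was that of *Smad2*.

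The comparison of KO with wildtype asked whether the loss of DJ-1 alters the level of these genes. None of the 10 passed the thresholds of an unadjusted p under 0.05 and a log2FC of at least 0.5 in size: 0 after LPS, where 1.31% of all genes passed, and 0 after PBS, where 0.8% did. At an unadjusted p under 0.05 alone the count was 0 in both states with edgeR and with DESeq2. Of all genes 2.57% passed it after LPS and 1.04% after PBS in edgeR. The count was 1 (*Tgfbr2*) after LPS in edgeR with a block for the replicate number or with the number of the mouse as a covariate. In neither setting did *Tgfbr2* pass an adjusted p under 0.05. The share of all genes past the unadjusted threshold in these settings is not given here, so that count has no background beside it. After LPS the widest differences were those of *Tgfbr2*, at 575 ± 128 CPM in wildtype and 727 ± 151 CPM in KO cells (SD, log2FC 0.34, 95% interval -0.03 to 0.71), and of *Skil*, at 588 ± 78.7 and 723 ± 189 CPM (log2FC 0.30, 95% interval -0.05 to 0.64). In edgeR's quasi-likelihood test, fitted across all genes, the unadjusted p-values were 0.0731 and 0.0874. With the block and with the covariate the unadjusted p-values of *Tgfbr2* in edgeR's quasi-likelihood test, fitted across all genes, were 0.0319 and 0.0312, at log2FC values of 0.34 and 0.40. *Tgfbr1* was at 879 ± 272 and 926 ± 290.2 CPM (log2FC 0.07, 95% interval -0.38 to 0.53). Over the 10 genes 7 had a positive and 3 a negative log2FC, with a median of 0.10 against 0.02 over all genes.

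At PBS baseline the log2FC lay between -0.15 and 0.07 for all 10 genes. *Nrros* had the lowest, at -0.15 (95% interval -0.48 to 0.19), and was the 1 gene of the 10 whose groups did not overlap, with 200 to 223 CPM in wildtype and 174 to 196 CPM in KO cells. Of all genes 0.544% were separate and lower in KO cells in this way. The 95% intervals reached as far as -0.48 for *Nrros* and 0.53 for *Tgfbr1*, so that a difference of 0.5 was not left out for *Tgfbr1*.

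**Figure D4:**
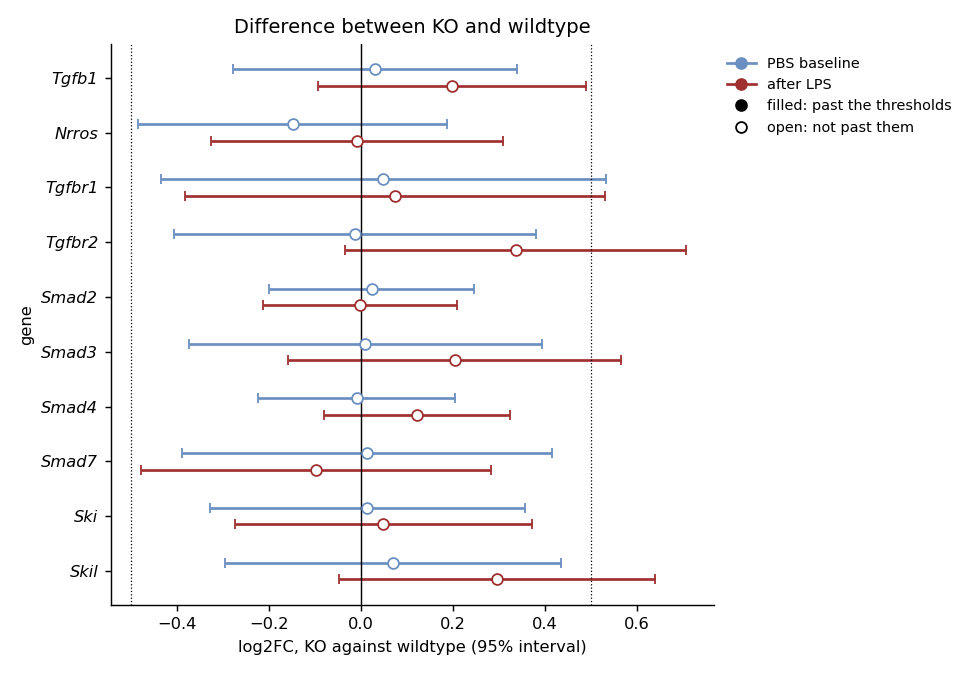
Log2 fold change between KO and wildtype for the 10 genes at PBS baseline (blue) and after LPS (red), with 95% intervals from the edgeR fit; dotted lines mark -0.5 and 0.5. Every point is open, that is, short of the thresholds, and every interval includes 0; *Tgfbr2* and *Skil* after LPS lie farthest to the right, at 0.34 and 0.30.

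The interaction of genotype and LPS tested whether the LPS difference itself was unlike in KO and wildtype cells. It passed an adjusted p under 0.05 for 0 of the 10 genes and for 0 of all genes (0%), with 0 of the 10 and 180 of all genes at an unadjusted p under 0.05 in edgeR, and 0 and 223 in DESeq2. The widest difference was that of *Tgfbr2*, whose LPS log2FC was -0.59 in wildtype and -0.24 in KO cells (interaction 0.35, 95% interval -0.19 to 0.89). For *Tgfbr1* the interaction was 0.03 (95% interval -0.64 to 0.69). The calls of *Tgfb1*, *Tgfbr2* and *Smad3* in wildtype cells alone were therefore not shown to differ between the genotypes.

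The rest of the pathway was followed with 68 further genes in 7 lists, of which 67 were tested. In wildtype cells 12 rose and 20 fell after LPS, where 18.4% of all genes tested rose and 17.4% fell. In KO cells 12 rose and 22 fell, where 20.1% and 19% of all genes did. The same shares stand beside the counts of each list below. In both comparisons of KO with wildtype and in the interaction 0 of the 67 passed in edgeR and 0 in DESeq2. At an unadjusted p under 0.05 there was 1 after LPS, where 2.57% of all genes passed in edgeR, and 0 otherwise, in either tool. These lists were drawn up with results of these data known, and their counts describe them and do not set them apart from other genes.

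Among 11 other ligands and proteins that handle latent ligand, 3 rose and 1 fell in wildtype cells, with a median log2FC of -0.30. *Thbs1*, which encodes the TGF-beta activator thrombospondin 1, rose by a log2FC of 3.07 (SE 0.344), from 33.5 to 45.5 CPM after PBS to 191 to 603 CPM after LPS. *Lrrc32*, which encodes GARP, the relative of the *Nrros* product that anchors latent ligand on other cells, rose by 2.20 (SE 0.600) from a low level of 4.43 to 14.6 CPM. *Furin*, the convertase that cleaves the TGF-beta precursor, rose by 1.33 (SE 0.141), and *Ltbp4*, a latent TGF-beta binding protein of the matrix, had a log2FC of -1.64 (SE 0.426). In KO cells the same list had 3 higher and 3 lower, with log2FC values of 2.86, 1.78, 1.28 and -1.83 for these genes, and also *Tgfb2* (-1.24) and *Itgav* (-0.52), named after their values were seen. The median endothelial marker sum was 707 CPM after PBS and 409 CPM after LPS in wildtype cells, and 621 and 318 CPM in KO cells, and its part in the *Ltbp4* difference was not tested.

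The other receptors and SMADs mostly stayed short of the thresholds. Of 10 other receptors and co-receptors, *Acvr1b*, the activin type I receptor, rose (log2FC 1.41 in wildtype, 1.44 in KO cells) and *Acvr1*, a type I receptor for BMP ligands, fell (-0.66 and -0.78), and in KO cells *Eng*, named after its value was seen, fell as well (-0.54). Of 10 other SMADs and nuclear partners tested, the repressor *Tgif1* rose (1.01 and 1.17), and *Smad6*, the other inhibitory SMAD, fell (-1.005 and -1.21) from a low 7.55 to 17.1 CPM in wildtype cells after PBS. Both inhibitory SMAD genes were thus lower after LPS. In the TAK1 branch, which carries TGF-beta and Toll-like receptor signals to MAP kinases, *Traf6* rose (0.62 and 0.87) and the other 3 genes did not pass.

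Of 9 genes for receptor and SMAD turnover, 3 fell in wildtype cells and 2 in KO cells, and the others did not pass. *Pmepa1*, which encodes a membrane protein that sequesters SMAD2 and SMAD3 and is itself a TGF-beta target, went from 274 to 383 CPM after PBS to 74.4 to 124 CPM after LPS in wildtype cells (log2FC -1.84, SE 0.139) and fell by 1.86 on the log2 scale in KO cells. The ubiquitin ligase gene *Wwp1* fell as well (-1.17 and -1.20). *Nedd4l* fell in wildtype cells (-0.65), with a log2FC of -0.46 in KO cells.

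Immediate TGF-beta target genes did not move in 1 direction. Of 13, 7 rose and 3 fell in each genotype, and the median log2FC over the list was 0.96 in wildtype and 0.82 in KO cells. *Id2*, an inhibitor of basic helix-loop-helix factors, rose by a log2FC of 2.56 in wildtype and 2.89 in KO cells, and *Ccn2* by 2.12 and 1.41. *Pmepa1*, on this list too, *Col1a1* (-1.32 and -1.47, at most 6.84 CPM in any wildtype library) and *Ldlrad4* (-0.97 and -0.73), a further inhibitor of SMAD phosphorylation, fell.

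The microglial genes listed here as TGF-beta dependent fell throughout the list. All 12 genes matched of 13 listed passed both thresholds in each genotype, where 17.4% of all genes fell in wildtype and 19% in KO cells. Their median log2FC was -1.92 in wildtype and -1.61 in KO cells. *Gpr34*, a lysophospholipid receptor gene, fell by 5.09 on the log2 scale in wildtype cells, *Slc2a5*, a fructose transporter gene, had a log2FC of -4.14 there, and *P2ry12*, the ADP receptor gene, of -3.66. Their log2FC values in KO cells were -5.04, -3.41 and -3.36. Of the 12 genes 6 are also on the microglial marker list, whose summed level was lower after LPS as given above. On that marker list 7 of 8 genes fell in each genotype, so the fall was not particular to the genes listed as TGF-beta dependent.

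**Figure D5:**
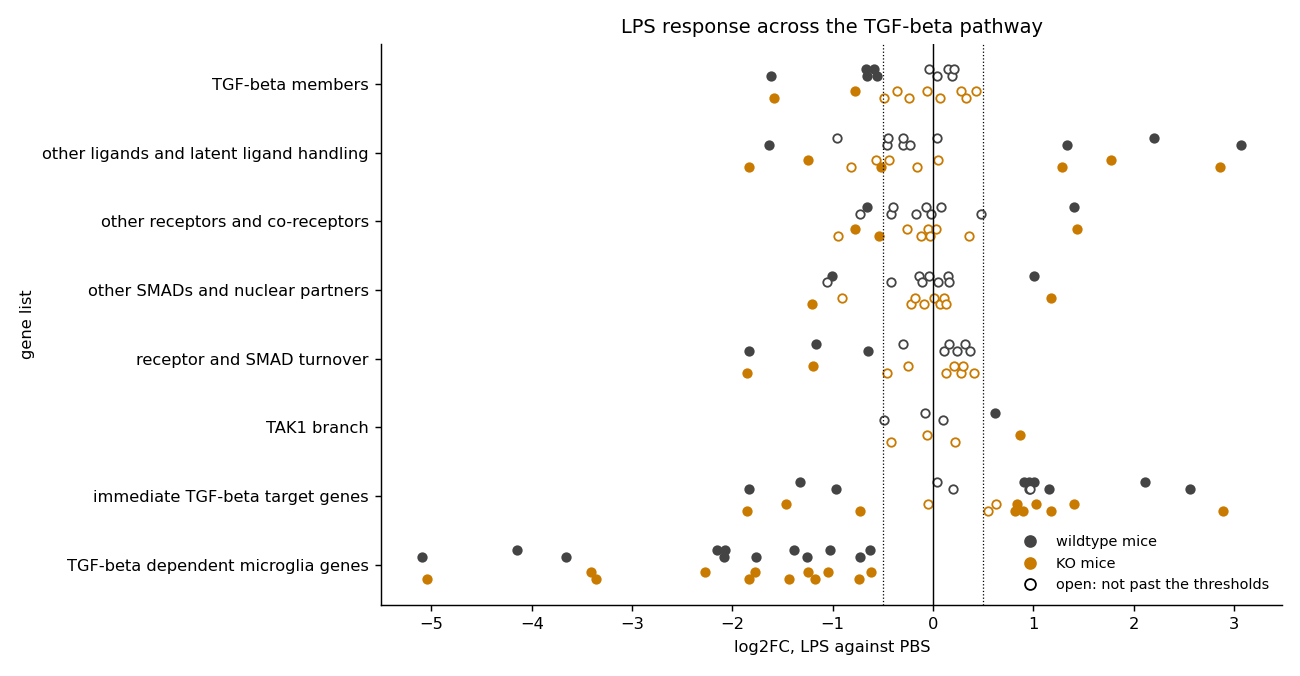
Log2 fold change between LPS and PBS (x axis) of the tested genes of the 10 members and the 7 further TGF-beta lists (rows) in wildtype (grey) and KO (orange) mice; each point is 1 gene, filled points passed both thresholds, and dotted lines mark -0.5 and 0.5. Among the 10 members 5 wildtype and 2 KO points are filled, each to the left of -0.5, and the other members lie between the dotted lines. The 12 microglial genes listed as TGF-beta dependent all lie to the left of -0.5 in both genotypes.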

How the data were processed

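CD11b+ brain cells of 19 libraries were profiled by stranded total RNA sequencing after ribosomal depletion. The authors trimmed reads with Cutadapt, aligned and counted them with STAR 2.7.9a on GRCm39 with Ensembl release 108, and deposited raw read counts per gene. The tests used edgeR 4.0.16 in R 4.3.3: filterByExpr (minimum count 10, minimum total 15), TMM factors, and 1 quasi-likelihood fit of the 4 groups without covariates. CPM values use the TMM-scaled library totals, and log2 CPM a prior count of 2. The SE of a log2FC is its size over the square root of F, and CPM per kb divides by the union of exons in GENCODE M39. P-values were adjusted by Benjamini-Hochberg. LPS against PBS was called at an adjusted p under 0.05 and KO against wildtype at an unadjusted p under 0.05, both with a log2FC of at least 0.5 in size, and the interaction at an adjusted p under 0.05.

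The members, gene lists and tests were chosen with earlier results of these data known. The text names every member, at most the 3 largest called genes per direction of each pathway list in wildtype cells, and the gene most like each member (Pearson's r, mean of at least 10 counts). A gene that this rule would name is not reported here. Marker lists covered microglia, other leukocytes and other brain cells. No 2 libraries of a group agreed within sampling noise, and each counted as 1 replicate. Alternatives were DESeq2 1.42.0 and its size factors, library totals, other filters and gene sets, only the groups compared, replicate or animal number, a marker score, another threshold, and each library left out. Scripts were tested on simulated data. Depth ranged from 11936364 to 22788884 counts, so 3 counts were 0.132 to 0.251 CPM, for counting error only.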

Additional observations from a re-analysis of the deposited data

Results flagged for a closer look

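In 40 sets of a gene and a group, each of 4 or 5 libraries, 1 library stood apart from its group by Dixon's criterion, which chance meets in about 1 of 20 sets. It was *Nrros* in KO PBS replicate 3, at 174 CPM beside 192 to 196 CPM in the other 4 libraries, a gap of 0.833 of the group's range in log2 CPM. Without that library the result for *Nrros* between KO and wildtype at PBS baseline did not change its side of the threshold.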

How the results depend on the processing

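Of the counts of members past the thresholds, these moved by over 1.5 times. In wildtype cells 5 genes fell, and 3 to 5 with 1 library left out, the 3 being without WT PBS replicate 1, where *Tgfbr2* and *Smad3* were lost. In KO cells 0 genes rose, and 2 did at any fold change (*Smad4* and *Skil*), by construction of that setting. Leaving out 1 library gave 0 to 1, the 1 being *Skil* without KO LPS replicate 1. The cause was not tested for the libraries left out. The counts past the thresholds for KO against wildtype and for the interaction were 0 throughout, and no called log2FC changed sign. Of all 1440 member values compared with the main fit, called or not, 115 changed sign, each of a member that was not called. *Tgfbr1* kept its call in both genotypes in every setting, with log2FC values of -1.81 to -1.50 in wildtype and -1.78 to -1.47 in KO cells with 1 library left out. At an unadjusted p under 0.05 with any fold change, KO against wildtype after LPS had 0 of the 10 genes in edgeR, where 2.57% of all genes passed. With 1 library left out this comparison had *Tgfb1* and *Skil* (without KO LPS replicate 1), *Tgfbr2* (without KO LPS replicate 4) and *Tgfbr2* and *Smad3* (without WT LPS replicate 3), with log2FC values of 0.30 to 0.45. None of these passed an adjusted p under 0.05. The share of 2.57% is that of the main fit. The shares with a library left out are not given here, so these genes have no background beside them. Library totals in place of TMM moved the median of all genes from -0.06 to -0.15 in wildtype and from -0.01 to -0.12 in KO cells.

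A replicate block (the number of the labels) left 5 genes lower in wildtype and 3 in KO cells, where *Tgfb1* (log2FC -0.51) joined *Tgfbr1* and *Smad7*. It also brought *Tgfbr2* in KO against wildtype after LPS to an unadjusted p of 0.0319 in edgeR's quasi-likelihood test, fitted across all genes (log2FC 0.34). Libraries with the same number share only that number. Between LPS and PBS libraries their deviations correlated by a mean r of 0.33 over 4 pairs in wildtype and 0.25 over 5 pairs in KO cells, and not every pair passed 0.1 (lowest -0.04 and 0.03). Of these pairs, 2 of 4 and 3 of 5 correlated best with their own number. Between KO and wildtype libraries the mean r was -0.10 over 5 pairs after LPS (lowest -0.57) and -0.006 over 4 pairs after PBS (lowest -0.29). There 1 of 5 and 2 of 4 pairs correlated best with their own number.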
